A study of Triticum aestivum and Aegilops tauschii and Triticum carthlicum with 33 samples.

Results

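The 150 probe sets described here carried the widest leaf signal differences between 2 lines of the wild diploid grass Aegilops tauschii, TQ18 and 30A, among probe sets with little signal in the tetraploid wheats to which these lines had been crossed. They were found among 61179 probe sets of an Affymetrix wheat array, after the Affymetrix control probe sets were dropped. In 34123 of these the group means of Extracted-tetra and Blackbird were both under 5 log2 units, and the 150 with the largest absolute difference of group means, TQ18 minus 30A, were taken. Of the 150, 68 had the higher mean in TQ18 and are called TQ18-high below, and 82 had the higher mean in 30A and are called 30A-high. The members were thus selected on the TQ18, 30A, Extracted-tetra and Blackbird arrays. On the log2 scale 1 unit is a 2-fold difference of signal. The values that chose the members are a description and support nothing: the median absolute parental difference was 3.13 log2 units in the TQ18-high and 3.53 in the 30A-high members, and all 150 were called in TQ18 minus 30A, against 18.5% of all probe sets. The last members inside the ranking were Ta.25267.1.A1_at, at 2.52, and Ta.26910.1.S1_at, also at 2.52. The first outside it were TaAffx.27375.1.S1_at, at −2.50, and Ta.9753.1.A1_at, at 2.49.

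Aegilops tauschii is the source of the D genome of bread wheat, which joined the B and A genomes of a tetraploid wheat. A hexaploid made again by crossing a tetraploid to an Aegilops tauschii line receives the D genome of that line, with whatever that line expresses or lacks. RNA of both parents mixed in the tube estimates the signal of a hexaploid in which each genome kept its parental expression. A probe set is a group of short probes aimed at a transcript, and its signal depends on the amount of transcript and on how well the transcript matches the probes, which cannot be told apart here. Likewise fewer cells of a type and less RNA per cell cannot be told apart in whole leaf. None of the 150 is among the 1273 probe sets that the platform annotation pairs with a gene, and 59906 of the tested probe sets are unnamed there, so the members are given by probe set name and without a function.

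Leaf RNA was measured on 33 arrays, in 11 groups of 3 labelled biological replicates, from plants kept under 16 h of light with a day temperature of 24 °C and a night temperature of 20 °C. Extracted-tetra is a tetraploid with the BBAA genomes taken out of bread wheat by a cross to durum wheat and repeated backcrossing, and TAA10 is a bread wheat, Triticum aestivum, with all 3 genomes; the labels do not name the bread wheat that gave Extracted-tetra. XX329 is a hexaploid resynthesized with Extracted-tetra as the mother, and the label of its RNA mix names TQ18 as the other parent. Allo-960S7 is a newly synthesized hexaploid in selfed generation 7, and the label of its mix names Blackbird (Triticum turgidum ssp. carthlicum) and 30A. XX329 mix and Allo-960 mix held 2 parts of tetraploid to 1 part of diploid RNA. TTR13 (ssp. durum) and TD265 (ssp. dicoccoides) are natural tetraploids that took no part in the choice of members. Each line stands for 1 accession of its kind, plant ages and the generation of XX329 are not given in the sources used here, and the labels do not say whether the replicates came from separate plants. The p-values therefore measure only the spread between these arrays.

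Arrays of 1 group correlated with r from 0.979 to 0.996 across all probe sets, and array medians lay from 4.37 to 4.48 log2 units. No background level comes with the values, so folds that start below these medians are uncertain. Markers of leaf were bright on every array (psbO, of the oxygen-evolving complex, 14.3 to 14.5 log2 units) and of the seed markers gliadin was at 2.65 to 3.59 and WMAI-1, an amylase inhibitor, at 4.67 to 5.77, above the array medians. The hybridisation controls averaged 9.04 to 9.48 log2 units on the 12 arrays of the Allo-960 family (both parents, the hexaploid and the mix) and 9.62 to 10.2 on the other 21, so a comparison of XX329 or TAA10 with Allo-960S7, or of TQ18 with 30A, crosses these sets of arrays, and set and line cannot be told apart in it. The actin 3′ minus 5′ control difference, a measure of RNA quality, moved the same way by group means. These ran from −1.50 to −0.933 in the Allo-960 family and from −0.677 to 0.337 in the other groups, so they also differed within a set. Single arrays overlapped: Blackbird replicate 3, at −0.546, lay above all TQ18 arrays. The actin difference was −0.406 ± 0.182 in XX329 and −1.24 ± 0.10 in Allo-960S7, and −0.677 ± 0.152 in TQ18 and −1.50 ± 0.175 in 30A (log2 units, mean ± SD, n = 3 each). Its part in the results was not tested.

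By median level, the signal of each line was present in its own hexaploid and low in the other (levels below are medians over members of the group means). In the TQ18-high members the median level was 7.42 log2 units in TQ18, 5.28 in XX329 mix and 5.13 in XX329. It was 3.96 in 30A, 3.54 in Allo-960 mix and 3.63 in Allo-960S7, while the tetraploids lay from 3.35 in Extracted-tetra to 3.53 in TD265. In the 30A-high members it was 7.54 in 30A, 5.64 in Allo-960 mix and 5.44 in Allo-960S7. It was 3.69 in TQ18, 3.47 in XX329 mix and 3.52 in XX329, with the tetraploids from 3.46 to 3.56. By these medians bread wheat TAA10 stood between the hexaploids in both sets of members, at 4.84 and 5.15. Member by member, its mean was between theirs in 36 of 68 TQ18-high and 39 of 82 30A-high members. It was above both in 25 and 31, and below both in 7 and 12. The lower of the D parents had a mean below the lowest array median in 44 of the 68 TQ18-high and 63 of the 82 30A-high members, so in most members 1 line had signal and the other had little.

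**Figure D1:**
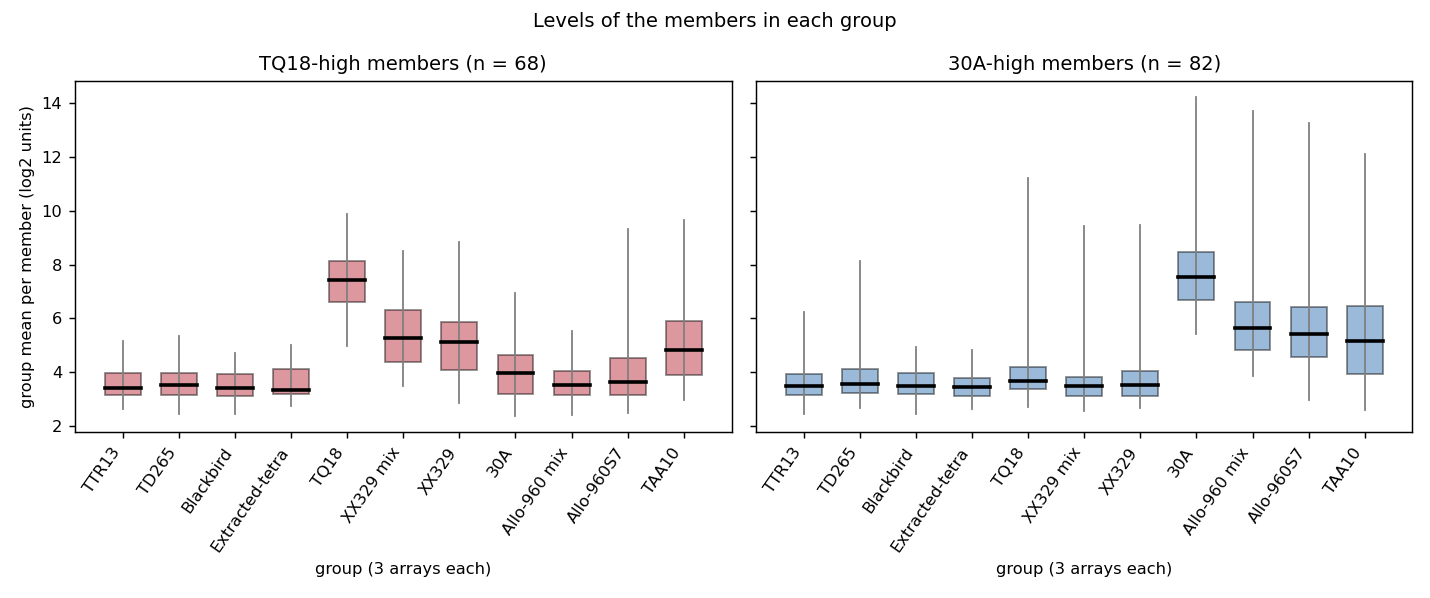
Group means of the TQ18-high members (left, n = 68) and the 30A-high members (right, n = 82), in log2 units, by group. Boxes span the quartiles over members with the median as a line, and thin lines run from the lowest to the highest member; the left panel stands at 5.13 in XX329 and 3.63 in Allo-960S7, the right panel at 3.52 and 5.44.

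The first question was whether the hexaploids keep the difference between their D parents. In XX329 minus Allo-960S7, on arrays not used to choose the members, 125 of the 150 (83.3%) were called in the direction of TQ18 minus 30A (limma, adjusted p under 0.05), against 14.7% of all probe sets and 7.8% of those with both tetraploid means under 5. Of the 68 TQ18-high members, 52 were higher in XX329, 4 were lower and 12 were not called; among all probe sets 10.5% were called higher. Of the 82 30A-high members, 73 were lower in XX329, 0 were higher and 9 were not called; among all probe sets 9.21% were called lower. The median difference was 1.10 log2 units in the TQ18-high and −1.82 in the 30A-high members, and −0.0039 over all probe sets. The difference was at least 2-fold and called in 38 TQ18-high and 64 30A-high members.

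The hexaploid and mix differences were smaller than that of the diploid parents, which by itself is no finding. The parental difference chose the members, and mixing with tetraploid RNA of low signal lowers it. The hexaploids are therefore compared with the RNA mixes, which hold RNA of the same parental lines. A mix difference in the parental direction thus follows largely from the choice of members, and its count is a description. That choice may also favour the mix difference over the hexaploid difference, which was not tested. In XX329 mix minus Allo-960 mix, 146 of the 150 (97.3%) were called in the direction of the parents, against 11.7% of all probe sets and 5.56% of those with both tetraploid means under 5, and 0 the other way. The median mix difference was 1.56 log2 units in the TQ18-high and −1.95 in the 30A-high members. Mixes calculated from the parental means at 2 parts to 1 gave 2.10 and, as a size, 2.42. The hexaploid difference was smaller than the mix difference in 48 of 68 TQ18-high and 56 of 82 30A-high members. Among them were 8 and 1 whose hexaploid means had the opposite sign. It lay within 1 log2 unit of the mix difference in 55 and 69, a wide band beside a median mix difference of 1.56. At least 2-fold differences in the direction of the parents were seen in 54 and 76 members in the mixes, and in 38 and 64 in the hexaploids. Across the members, hexaploid and mix differences correlated with r = 0.43 and rho = 0.54 in the 68 TQ18-high members, and with r = 0.81 and rho = 0.79 in the 82 30A-high members; the points share arrays, so these are descriptions.

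**Figure D2:**
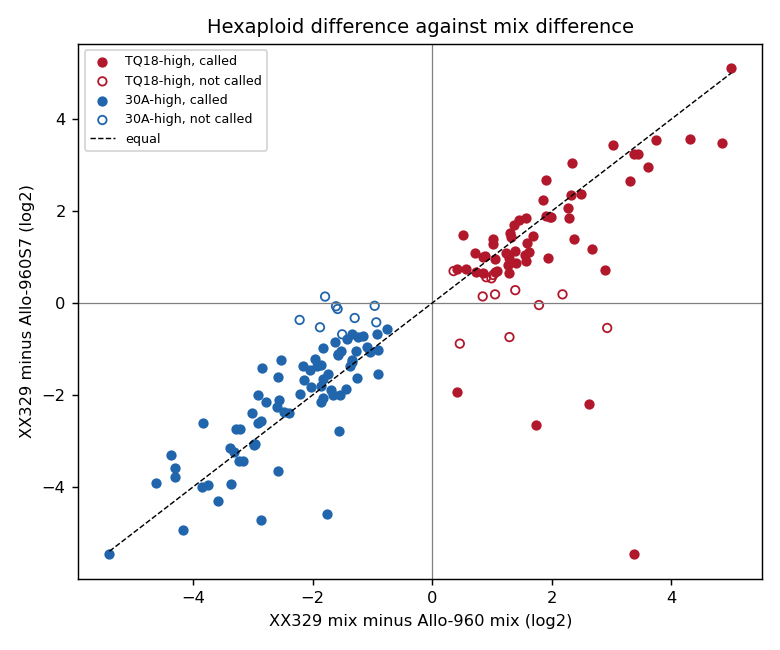
Each point is a member, with XX329 mix minus Allo-960 mix on the horizontal axis and XX329 minus Allo-960S7 on the vertical axis, both log2 differences of group means (n = 3 each). Filled points were called in the hexaploid difference. The dashed line marks equal values. The hexaploid difference lay within 1 log2 unit of the mix difference in 55 of 68 TQ18-high and 69 of 82 30A-high members. It was the smaller in 48 and 56. On the vertical axis 4 called TQ18-high members (filled red) lie below 0.

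Ta.28123.1.S1_at had the highest TQ18 minus 30A value of the members. Its 3 arrays read 9.62, 9.87 and 9.28 log2 units in TQ18 and 3.04, 2.97 and 2.81 in 30A. XX329 read 7.88, 6.84 and 8.68 and Allo-960S7 read 2.65, 2.80 and 2.62, so the hexaploids did not overlap. The difference was 5.11 (SE 0.28, adjusted p = 1.3e-14), close to the mix difference of 5.01 (SE 0.28). TAA10, at 10.09, 9.88 and 9.01, lay above every XX329 array, by 1.86 (SE 0.28, adjusted p = 5.9e-05), a call lost in a fit of only the 6 arrays compared.

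Ta.24758.1.S1_a_at and Ta.24758.1.S1_x_at share a name stem and are not independent. For the first, TQ18 read 9.93, 9.71 and 9.78 log2 units and 30A read 3.90, 4.07 and 4.03. XX329 read 8.68, 8.84 and 8.45, and Allo-960S7 read 5.28, 4.65 and 5.35, above all 30A arrays. Here Allo-960S7 exceeded Allo-960 mix by 1.32 (SE 0.14, adjusted p = 2.1e-07), and the second probe set by 1.66 (SE 0.19, adjusted p = 6.3e-07). The line difference was thus smaller in the hexaploids (3.56, SE 0.14, and 3.49, SE 0.19) than in the mixes (4.31 and 4.85). The difference of departures was called for both (adjusted p = 0.032 and 0.0029); for the first the call was lost when any of 7 single arrays was left out, and under 5 other settings.

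Ta.7477.3.S1_at and Ta.26974.1.A1_at completed the 5 members highest in TQ18. Ta.7477.3.S1_at read 8.39, 7.99 and 8.17 log2 units in TQ18, 6.27, 6.06 and 6.47 in XX329 and 6.15, 6.25 and 6.26 in TAA10. It read 2.97, 3.14 and 2.92 in Allo-960S7, apart from all of these. XX329 minus Allo-960S7 was 3.26 (SE 0.20, adjusted p = 1.7e-13) for this probe set and 2.96 (SE 0.15, adjusted p = 2.5e-15) for Ta.26974.1.A1_at. For the latter TAA10, at 8.54, 8.92 and 8.83, lay at the level of TQ18 (8.96, 8.81 and 9.17) and above XX329 (6.57, 7.13 and 6.71).

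On the 30A side, Ta.17023.1.A1_at led. It read 11.55, 11.35 and 11.51 log2 units in 30A and 4.78, 4.06 and 4.89 in TQ18. Allo-960S7 read 9.52, 9.37 and 10.03 and XX329 read 4.20, 4.42 and 3.93, with no overlap. XX329 minus Allo-960S7 was −5.45 (SE 0.19, adjusted p = 1.6e-19) and the mix difference −5.40. TAA10, at 10.05, 9.66 and 10.31, had the signal as well. Against the natural tetraploids TTR13 and TD265, on arrays of 1 set, TAA10 was higher by 5.81 (SE 0.16, adjusted p = 2.2e-22).

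TaAffx.110344.1.S1_at read 9.56, 9.76 and 9.87 log2 units in 30A, 7.53, 7.38 and 7.39 in Allo-960S7 and 3.89, 3.38 and 3.30 in XX329. Ta.6128.1.S1_at read 9.50, 9.91 and 9.54 in 30A, 8.42, 8.63 and 8.34 in Allo-960S7 and 3.44, 3.60 and 3.55 in XX329. In neither did the hexaploids overlap, and XX329 minus Allo-960S7 was −3.91 (SE 0.19, adjusted p = 5e-16) and −4.93 (SE 0.17, adjusted p = 1.6e-19). The departures of Allo-960S7 from its mix were of opposite sign, −0.62 (SE 0.19, adjusted p = 0.035) and 0.93 (SE 0.17, adjusted p = 0.00041). TAA10 lay between the hexaploids in both, at 6.20, 6.61 and 6.18 for the first and 7.14, 7.24 and 7.61 for the second.

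Ta.22270.2.S1_at and Ta.10451.2.A1_x_at had signal in 30A and Allo-960S7 but differed in TAA10. Ta.22270.2.S1_at read 7.07, 6.62 and 6.81 log2 units in Allo-960S7, 3.38, 2.96 and 3.40 in XX329 and 3.57, 3.60 and 3.33 in TAA10, so bread wheat was low, like XX329, and their arrays overlapped. XX329 minus Allo-960S7 was −3.58 (SE 0.19, adjusted p = 4.7e-15). Ta.10451.2.A1_x_at, with probes shared between transcripts, read 6.84, 7.59 and 7.20 in Allo-960S7 and 3.01, 2.91 and 2.78 in XX329. Its TAA10 arrays stood apart from each other, at 3.36, 3.77 and 6.78. TAA10 minus XX329 was 1.73 (SE 0.46, adjusted p = 0.04), and 0.66 (SE 0.26, adjusted p = 0.271) without TAA10 replicate 3; the call was also lost without any single XX329 array.

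**Figure D3:**
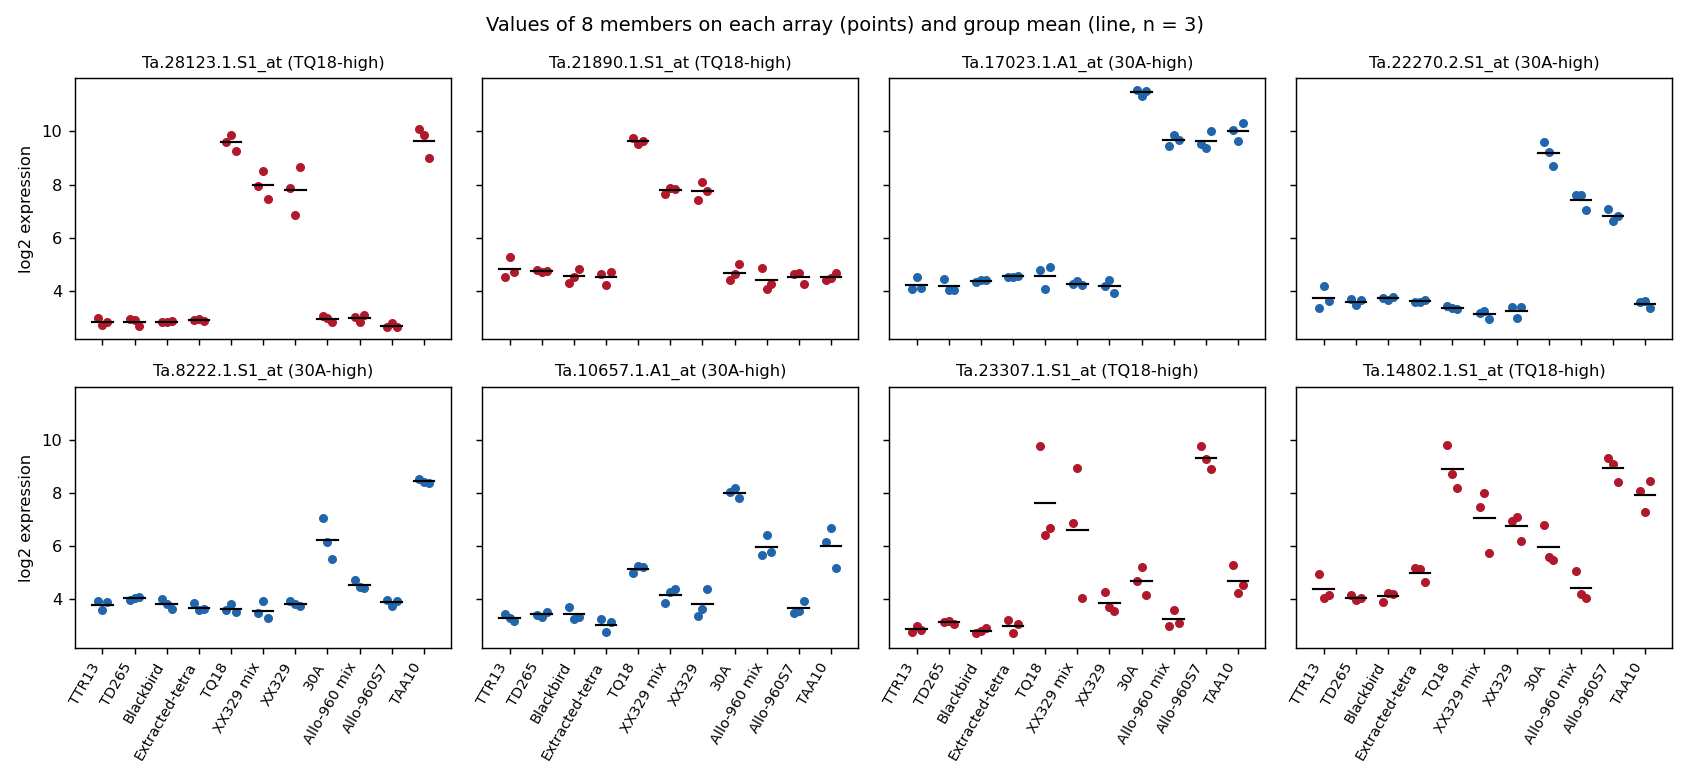
Log2 expression of 8 members on every array (points; 3 per group) with the group mean as a line, red for TQ18-high and blue for 30A-high. Ta.28123.1.S1_at and Ta.17023.1.A1_at are high in TAA10, Ta.21890.1.S1_at and Ta.22270.2.S1_at are low there, Ta.8222.1.S1_at and Ta.10657.1.A1_at are low in Allo-960S7, and Ta.23307.1.S1_at and Ta.14802.1.S1_at are higher in Allo-960S7 than in XX329.

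A check within 1 set of arrays used the tetraploids that the rule had not used. In XX329 minus the mean of TTR13 and TD265, 56 of the 68 TQ18-high members were called higher and 0 lower, against 11.2% of all probe sets called higher and 5.61% of those with both tetraploid means under 5. Of the 82 30A-high members, 8 were higher, 11 lower and 63 not called, where 15.4% of all probe sets were lower. The median difference was 1.21 log2 units in the TQ18-high and −0.062 in the 30A-high members, and −0.069 over all probe sets. The spread between tetraploid lines is not part of these p-values. For Allo-960S7 the only tetraploid in its set of arrays was Blackbird, which the rule used; as a description, Allo-960S7 exceeded Blackbird by at least 1 log2 unit in 61 of 82 30A-high and 13 of 68 TQ18-high members, and XX329 exceeded Extracted-tetra by as much in 4 and 42.

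The second question was where a hexaploid departed from the mix of its parents, each compared within 1 set of arrays. In Allo-960S7 minus Allo-960 mix 37 of the 150 members (24.7%) were called, against 8.54% of all probe sets. Of the 82 30A-high members, 17 were lower than the mix and 8 higher, where 5.25% of all probe sets were lower and 3.3% higher. Of the 68 TQ18-high members 10 were higher and 2 lower. The Allo-960 mix mean was under 5 log2 units in 67 of the 68, and whether such low signal limited falls was not tested. In XX329 minus XX329 mix 12 of the 150 (8%) were called, against 1.88% of all probe sets: among the TQ18-high members 7 were lower and 3 higher, and among the 30A-high members 2 were higher, where 0.943% of all probe sets were lower and 0.94% higher. The XX329 count depended on the arrays. It was 5.33% without XX329 replicate 1, 4.67% without XX329 mix replicate 2 and 0.667% in a fit of only the 6 arrays compared. The 3 XX329 mix arrays differed in the median level of the TQ18-high members, at 5.44, 5.59 and 4.76 log2 units.

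The departures of the hexaploids differed from each other in 24 of the 150 members (16%; interaction contrast, limma, adjusted p under 0.05), against 4.02% of all probe sets and 1.13% of those with both tetraploid means under 5. In 12 of the 24 the line difference had the same sign in the hexaploids and was smaller than in the mixes. In 7 it had the opposite sign, and in 5 it was larger. The choice of members bears on this split, which is only a description. The mix without the higher line was low, at a median of 3.54 log2 units in the TQ18-high and 3.47 in the 30A-high members. Whether such low signal favoured rises over falls was not tested. A shift of a whole set of arrays cancels in this contrast only where it is equal, in log2 units, in a hexaploid and its mix. Whether it was equal at low signal was not tested. Array weights gave 24.7% and a fit of only the 12 arrays compared gave 9.33%.

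In 8 TQ18-high members the hexaploid means stood in the opposite order to the D parents; the difference was called in 4 of them, and 3 of these 4 are described first. Ta.23307.1.S1_at read 9.79, 6.43 and 6.70 log2 units in TQ18 and 4.68, 5.21 and 4.15 in 30A, but 4.28, 3.71 and 3.57 in XX329 and 9.79, 9.28 and 8.90 in Allo-960S7. Allo-960 mix was at 3.00, 3.62 and 3.12, and XX329 mix was scattered, at 6.87, 8.94 and 4.05. XX329 minus Allo-960S7 was −5.47 (SE 0.71, adjusted p = 8.9e-07), and the departure of Allo-960S7 from its mix was 6.08 (SE 0.71, adjusted p = 5.7e-07). Every Allo-960S7 array lay above every array of its parents, Blackbird (2.73, 2.80 and 2.94) and 30A.

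Ta.14802.1.S1_at read 9.31, 9.09 and 8.43 log2 units in Allo-960S7 and 6.94, 7.12 and 6.20 in XX329, without overlap, with Allo-960 mix at 5.07, 4.20 and 4.06. XX329 minus Allo-960S7 was −2.19 (SE 0.44, adjusted p = 0.00047), and TAA10, at 8.07, 7.31 and 8.45, differed from neither hexaploid by the test. TaAffx.104384.1.S1_at read 6.73, 6.38 and 6.11 in Allo-960S7 and 3.95, 3.88 and 3.43 in XX329, a difference of −2.65 (SE 0.39, adjusted p = 5.8e-06). Its TAA10 arrays, at 6.16, 4.82 and 5.75, were above XX329 by 1.82 (SE 0.39, adjusted p = 0.0047), a call lost without TAA10 replicate 1. In these 3 members TQ18 replicate 1 was the highest and XX329 mix replicate 3 the lowest array of its group. The same arrays were highest and lowest by the median over all 68 TQ18-high members. These medians were 7.45, 7.25 and 7.25 log2 units in TQ18 and 5.44, 5.59 and 4.76 in XX329 mix. The 3 members thus share only the order of the arrays with these medians. In each of the 3, TQ18 replicate 1 stood farther above the other TQ18 arrays than in the medians. TaAffx.104384.1.S1_at, for example, read 8.41, 6.56 and 6.58 log2 units in TQ18. Whether scatter of this size is particular to these 3 members was not tested. The fourth called member, TaAffx.73027.1.A1_at, which was chosen after its values were seen, had means of 3.75 in XX329 and 5.68 in Allo-960S7.

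The reverse case, a 30A signal that was low in Allo-960S7, was seen in 3 members at the bottom of the 30A-high difference. Ta.10657.1.A1_at read 8.04, 8.18 and 7.82 log2 units in 30A and 5.66, 6.42 and 5.80 in Allo-960 mix, but 3.50, 3.56 and 3.95 in Allo-960S7. Allo-960S7 was 2.29 below its mix (Allo-960S7 minus mix −2.29, SE 0.26, adjusted p = 4.5e-07) and overlapped XX329 (3.39, 3.65 and 4.41). Ta.21427.1.S1_at read 3.16, 2.87 and 3.23 in Allo-960S7 and 3.78, 4.83 and 4.72 in Allo-960 mix, a departure of −1.35 (SE 0.26, adjusted p = 0.00077). For Ta.8222.1.S1_at the departure, −0.64 (SE 0.22, adjusted p = 0.063), did not pass, and the hexaploids overlapped at 3.94, 3.84 and 3.74 in XX329 and 3.98, 3.77 and 3.95 in Allo-960S7.

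On the XX329 side, Ta.26910.1.S1_at read 9.26, 8.73 and 8.70 log2 units in TQ18 and 7.02, 7.37 and 6.47 in XX329 mix, but 5.40, 5.67 and 4.68 in XX329. The departure was −1.71 (SE 0.27, adjusted p = 0.00045), and XX329 overlapped Allo-960S7 (5.73, 4.89 and 4.54). TaAffx.57297.1.S1_at, chosen after its values were seen, had the most negative departure of XX329 among the members. It read 9.83, 9.79 and 9.56 in TQ18 and 8.16, 7.82 and 7.48 in XX329 mix, and 4.36, 3.91 and 4.63 in XX329, a departure of −3.52 (SE 0.20). Its Allo-960S7 arrays, at 3.59, 3.63 and 3.51, also lay below their mix (5.09, 5.23 and 4.48), so in this member both hexaploids lay below their mixes.

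**Figure D4:**
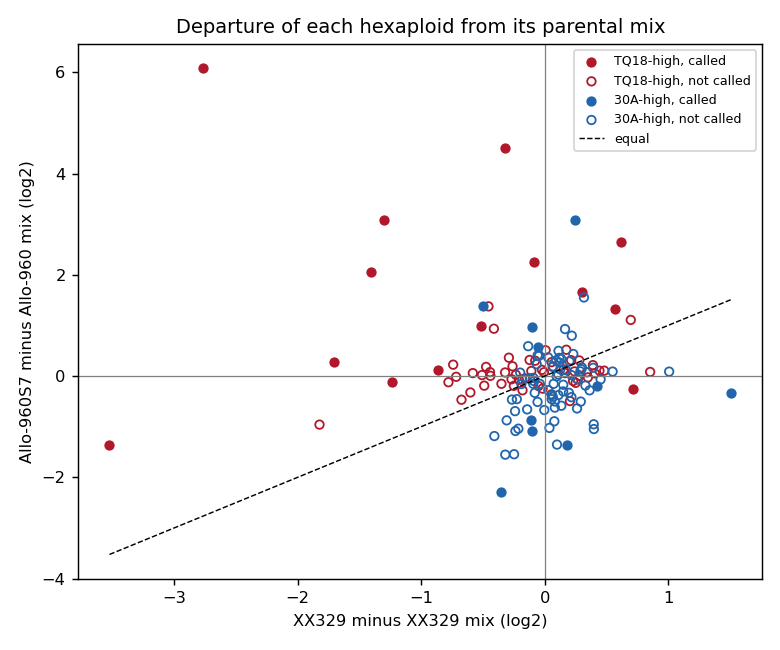
Each point is a member, with the departure of XX329 from XX329 mix on the horizontal axis and that of Allo-960S7 from Allo-960 mix on the vertical axis (log2 differences of group means, n = 3 each). Filled points are the 24 with a called difference of departures; the dashed line marks equal departures, and the point at the top left is Ta.23307.1.S1_at, at −2.77 and 6.08.

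The third question was where the bread wheat TAA10 lies, a natural hexaploid from neither cross. TAA10 had signal of both kinds. Against the mean of TTR13 and TD265, within 1 set of arrays, 43 of 68 TQ18-high and 60 of 82 30A-high members were called higher in TAA10, against 11.5% of all probe sets, and 1 and 7 lower, against 16.1%. The median difference was 1.18 and 1.56 log2 units, and −0.081 over all probe sets. Against XX329, also within this set, TAA10 differed in 73 of the 150 members (48.7%), where 2.14% of all probe sets were called. All 55 called 30A-high members were higher in TAA10 (1.33% of all probe sets). Of the 18 called TQ18-high members 8 were higher and 10 lower (0.816% of all probe sets). The rule took 30A-high members for low signal in Extracted-tetra and less signal in TQ18 than in 30A. XX329, made from Extracted-tetra and TQ18, had a mean under 5 log2 units in 79 of the 82. The direction of the 55 calls thus follows largely from the choice of members and is a description. The median TAA10 minus XX329 difference was 1.63 in the 30A-high and −0.079 in the TQ18-high members.

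Against Allo-960S7, across the sets of arrays, TAA10 differed in 94 of the 150 members (62.7%; 22% of all probe sets). In the TQ18-high members 40 were higher and 5 lower in TAA10, against a background of 11.5% higher and 10.4% lower. Their Allo-960S7 mean was under 5 log2 units in 54 of the 68, which the choice of members favours. In the 30A-high members 18 were higher and 31 lower. With Extracted-tetra subtracted from TAA10 and Blackbird from Allo-960S7, arrays that the rule used, 41.3% of the members and 8.52% of all probe sets were called.

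Placed against both hexaploids, 35 of 68 TQ18-high members (51.5%) differed in TAA10 from Allo-960S7 and not from XX329 by the test, and TAA10 was the higher in 32 of these 35. In 8 members TAA10 differed from XX329 only, in 10 from both and in 15 from neither. Of these 10, TAA10 lay above both hexaploids in 7, below both in 2 and between them in 1. Over all probe sets, 20.5% differed from Allo-960S7 only, 0.665% from XX329 only, 1.48% from both and 77.4% from neither. Of the 82 30A-high members, 22 differed from XX329 only, with TAA10 higher in each, 16 from Allo-960S7 only, with TAA10 lower in each, 33 from both and 11 from neither. Of these 33, TAA10 lay above both hexaploids in 18 and between them in 15. By means alone TAA10 was nearer to XX329 in 46 of 68 TQ18-high members and nearer to Allo-960S7 in 56 of 82 30A-high members. A call missed by the test does not show equal levels. The choice of members favours low signal in the hexaploid without the higher line, so the directions of these calls are a description.

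**Figure D5:**
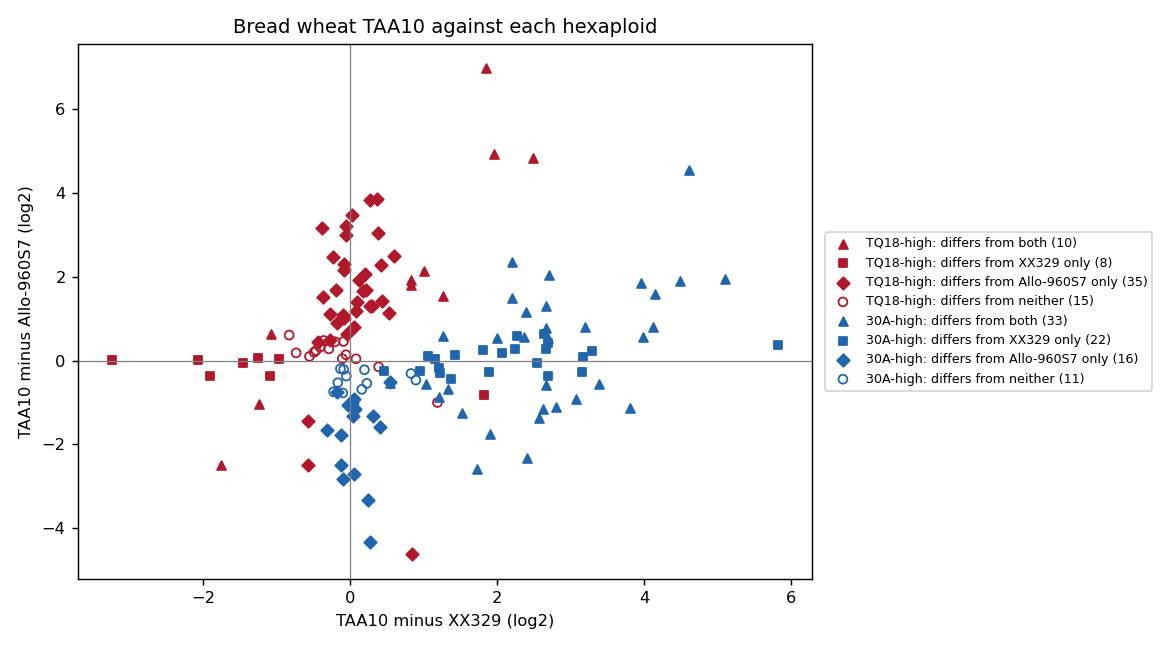
Each point is a member, with TAA10 minus XX329 on the horizontal and TAA10 minus Allo-960S7 on the vertical axis (log2 differences of group means, n = 3 each); marker shapes give the calls and the legend their numbers. TQ18-high members (red) gather near 0 on the horizontal axis and above 0 on the vertical one, and 30A-high members (blue) spread to the right.

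Bread wheat lacked the TQ18 signal in some members. Ta.21890.1.S1_at read 9.74, 9.51 and 9.63 log2 units in TQ18 and 7.41, 8.11 and 7.77 in XX329, but from 4.40 to 4.67 in TAA10, overlapping Allo-960S7 (4.64, 4.67 and 4.26). TAA10 minus XX329 was −3.24 (SE 0.20, adjusted p = 6.7e-13). Ta.11162.1.S1_at read 6.28, 6.35 and 5.27 in XX329, 3.82, 3.75 and 4.14 in TAA10 and 4.05, 3.82 and 3.84 in Allo-960S7, with TAA10 minus XX329 at −2.06 (SE 0.22, adjusted p = 1.2e-07). In both, TAA10 and XX329 did not overlap.

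In other members bread wheat exceeded the hexaploids. Ta.3527.1.S1_at read 8.35, 7.81 and 8.03 log2 units in TAA10, 6.07, 6.15 and 6.13 in Allo-960S7 and 3.26, 2.87 and 2.75 in XX329, and TAA10 minus XX329 was 5.10 (SE 0.17, adjusted p = 2e-19). Ta.8222.1.S1_at read 8.53, 8.40 and 8.40 in TAA10, above 30A itself (7.05, 6.15 and 5.51), and exceeded the higher hexaploid by 4.55. Ta.11068.1.A1_at read 7.54, 7.58 and 7.63 in TAA10, 5.49, 5.24 and 4.57 in XX329 and 2.87, 2.65 and 2.74 in Allo-960S7, and TAA10 minus XX329 was 2.48 (SE 0.18, adjusted p = 2.2e-11). No array of TAA10 overlapped a hexaploid in these 3 members.

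TAA10 lay below both hexaploids by the widest margin in TaAffx.108908.1.S1_x_at and Ta.26910.1.S1_at. The first read 3.98, 4.16 and 4.25 log2 units in TAA10, 5.99, 6.28 and 5.36 in XX329 and 7.15, 6.55 and 6.15 in Allo-960S7. TAA10 minus XX329 was −1.75 (SE 0.35, adjusted p = 0.003) and TAA10 minus Allo-960S7 −2.49 (SE 0.35, adjusted p = 3.5e-06). Ta.26910.1.S1_at read 3.97, 3.92 and 4.14 in TAA10, below all 6 hexaploid arrays, with TAA10 minus XX329 at −1.24 (SE 0.27, adjusted p = 0.0071), a call lost without XX329 replicate 2. TAA10 minus Allo-960S7 was −1.05 (SE 0.27, adjusted p = 0.0051), a call lost without Allo-960S7 replicate 1.

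The 150 members came from 139 name stems, with 2 members in each of 11 stems, and the members of each of these 11 shared a direction. Names beginning with Ta. made up 64.7% of the members, 51.4% of all probe sets and 39.9% of those with both tetraploid means under 5. Probe sets with the x suffix, some of whose probes also match other transcripts, made up 9.33% of the members, 11.1% of all and 7.26% of those with both tetraploid means under 5. The brightest member, Ta.7843.1.S1_a_at, chosen here for its level, had means of 14.2 log2 units in 30A, 11.2 in TQ18, 9.49 in XX329, 13.3 in Allo-960S7 and 12.1 in TAA10, so it was bright in both lines, unlike most members.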

How the data were processed

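The authors deposited log2 expression values for every probe set on every array of an Affymetrix wheat design; RMA and limma are named in the submitters' processing notes, without versions, and each target was prepared from 6 µg of RNA per the labels' protocols. Of 61290 probe sets, 111 Affymetrix controls were dropped. Precision is limited by the number of arrays, which have no read depth. All 33 arrays entered 1 model with a mean for each of 11 groups (lmFit, then eBayes, limma 3.58.1, R 4.3.3), which left 22 residual and, after shrinkage of the variances, 28.5 degrees of freedom. In each of 9 contrasts, 2-sided p-values were adjusted by Benjamini-Hochberg across 61179 probe sets, with calls at 0.05. The fit was tested on simulated data.

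The members, comparisons and lists were chosen with earlier results of these data known. Members named are the 5 highest and 5 lowest by TQ18 minus 30A, the 3 per direction with the smallest hexaploid difference, the 3 with the largest called difference of departures, the 2 per direction in which TAA10 minus XX329 ran most against TQ18 minus 30A, the 2 farthest above and the 2 farthest below both hexaploids, and those beside the ranking limit; others are marked as chosen after their values were seen. Alternatives were a 2-fold minimum, a filter on dim probe sets, other centrings and normalization, other variance settings, array weights, the x type left out, the replicate as a block, smaller fits, single arrays left out, and other choices of members. Same-numbered arrays were not paired: in 0 of 10 pairs of groups did every same-numbered pair correlate above 0.1.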

Additional observations from a re-analysis of the deposited data

Results flagged for a closer look

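The departures of the hexaploids from their parental mixes differed between XX329 and Allo-960S7 in 24 members by the interaction test. The 3 named members with the widest difference, XX329 departure minus Allo-960S7 departure, were Ta.23307.1.S1_at at −8.84 (SE 1.00, adjusted p = 1.2e-06), Ta.14802.1.S1_at at −4.82 (SE 0.62, adjusted p = 8.9e-06) and TaAffx.104384.1.S1_at at −4.39 (SE 0.54, adjusted p = 5e-06; limma, n = 3 arrays per group). All 3 are TQ18-high, and in each the Allo-960S7 arrays lay above every array of Allo-960 mix. Groups of 3 arrays were not searched for single arrays that stand apart.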

How the results depend on the processing

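Of 204 alternative counts of called members, 196 were within 1.5 times the reported count. The share of members called in XX329 minus XX329 mix (8%) was 4.67% with a 2-fold minimum and 0.667% with only the groups compared, and ranged from 4.67% to 12% with single arrays left out. Allo-960S7 minus Allo-960 mix (24.7%) gave 16% with a 2-fold minimum. The difference of departures (16%) gave 24.7% with array weights and 9.33% with only the groups compared. TAA10 minus Allo-960S7 (62.7%) gave 41.3% with the tetraploids subtracted. The same subtraction, which uses arrays of the rule, gave 66% for XX329 minus Allo-960S7 (3.92% of all probe sets) and 66.7% for the mixes (0.762%), and it raised the median SE over the members from 0.20 to 0.28. The cause of these changes was not tested. With the replicate number as a block, XX329 minus Allo-960S7 gave 83.3%, XX329 mix minus Allo-960 mix 96.7%, XX329 minus its mix 8.67%, Allo-960S7 minus its mix 26% and the difference of departures 16%; the labels do not pair these arrays. Of 58 called differences of named members under 948 settings, 914 stayed called in the same direction, 34 were no longer called and 0 reversed. Ranking by medians kept 142 members, and a tetraploid limit of 4.5 kept 136. The added choices, 1 probe set per stem and a higher D parent of at least 7, were made after the data were seen.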

Other observations

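The natural tetraploids that the rule did not use were low in most members, with a mean above 5 log2 units in TTR13 or TD265 in 3 of 68 TQ18-high and 9 of 82 30A-high members. TD265, the wild emmer, was above 5 in 8 of these 9. In 5 of the 8, chosen here after their values were seen and so without a test, TD265 and 30A had signal and bread wheat did not. TaAffx.6814.1.S1_at had means of 8.13 log2 units in TD265 and 6.40 in 30A, and of 3.52 in TTR13, 3.15 in TAA10 and 3.93 in Allo-960S7. TaAffx.86528.1.S1_at had means of 7.25 in TD265, 6.27 in 30A, 3.09 in TAA10 and 4.74 in Allo-960S7. TaAffx.65642.1.S1_at had means of 6.38 in TD265, 6.81 in 30A, 2.99 in TAA10 and 3.92 in Allo-960S7. In TaAffx.31445.1.S1_at and TaAffx.29342.1.S1_at the TD265 means were 5.18 and 5.05, and the TAA10 means 2.84 and 2.61. The other 3, Ta.22992.1.A1_at, Ta.22600.1.S1_at and Ta.4667.1.S1_at, had TAA10 means of 6.15, 7.99 and 7.44.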
